A study of Mus musculus with 22 samples.

Results

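The 7 mouse genes of the Fos and Jun families, Fos, Fosb, Fosl1, Fosl2, Jun, Junb and Jund, were followed in neurons and glia of the hippocampus opposite to a kainate injection. They were chosen by symbol, as the members of 2 gene families, and each matched 1 gene of the 53379 in the count table. All 7 passed the filter on low counts that left 40714 genes. Adult male C57/BL6N mice, 8 weeks old at arrival and acclimatised for 4 weeks, received kainate (70 nl of 20 mM) above the right hippocampus, or 0.9% NaCl as sham, and tissue was taken 24 h later. Kainate is an agonist of glutamate receptors that starts status epilepticus in this model. Kainate-treated mice were kept only if they had convulsive seizures.

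The 8 mice of each treatment were pooled into 3 samples of 4, 2 and 2 mice, and nuclei of each pool were sorted by NeuN, a protein of neuronal nuclei. NeuN+ nuclei are called neurons here and NeuN- nuclei glia, although the NeuN- fraction may also hold endothelial cells, pericytes and some neurons. This gave 11 mRNA libraries: 3 of kainate neurons, 3 of sham neurons, 3 of kainate glia and 2 of sham glia (replicates 1 and 3). The sample titles and the study place the tissue on the left, whereas the extraction text of the labels names the right side. A low RNA input of 0.05 ng, with 15 PCR cycles, was used for replicate 2 of kainate glia and replicate 1 of sham glia, against 1 ng and 10 cycles elsewhere. Libraries held 12058875 to 45428465 counts.

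The 4 libraries of replicate 1 stood apart from the other 7. Their mitochondrial share was 0.0519% to 0.176%, against 0.00939% to 0.0373% elsewhere. In neurons the kainate and sham libraries of replicate 1 deviated together from their group means (r = 0.643). For replicates 2 and 3, r was 0.161 and 0.491 at the same number and 0.166 and 0.418 across numbers. Kainate and sham pools of a number hold different mice, whereas NeuN+ and NeuN- libraries of a number came from the same pool. Fits with the number as a block are given beside those on group means where they change a call. Their FDRs rest on this pairing by number. All markers in the 7 cell type lists were above 0 in every library. The summed level of 6 neuron markers was 2835 to 6646 CPM in neurons and 465 to 745 CPM in glia. The 5 oligodendrocyte markers summed to 185 to 439 CPM in neurons and 4631 to 36814 CPM in glia. CPM are counts scaled to a common library total, with TMM factors for library makeup.

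AP-1 is a transcription factor made of 2 basic leucine zipper proteins, typically 1 of the Fos and 1 of the Jun family. Jun proteins can also pair among themselves, whereas Fos proteins need a Jun partner to bind DNA. Fos, Fosb and Junb are immediate early genes, which are transcribed within minutes of synaptic activity or a growth signal and need no new protein. In the hippocampus Fos is widely used as a mark of recently active neurons. Jund is the member whose mRNA is usually the most constant.

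Cyclic AMP and calcium signals reach several of these promoters through CREB and related factors, which bind TGACGTCA or its short form TGACG. The Jun promoter holds a variant, TGACATCA, that Jun-ATF2 dimers bind. RefSeq start sites of GRCm38.p6 were available for 6 of the 7 genes. In the 250 bases before the start, both strands were searched for TGACTCA (the AP-1 site) and for TGACGTCA (the CREB site). The letters TGACATCA and TGACG and the CArG box of serum response factor were searched too, and each TGACGTCA also counts as TGACG. Matches were found in Fos, Fosb, Jun and Junb, the 4 genes whose changes are described most fully below. The 110 bases before their start are shown 5′ to 3′ on the gene's strand, with matches in capitals.
Fos (chr12:85473780-85473889, + strand): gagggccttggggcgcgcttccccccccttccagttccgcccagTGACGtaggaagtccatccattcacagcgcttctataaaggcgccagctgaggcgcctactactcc
Fosb (chr7:19310046-19310155, - strand): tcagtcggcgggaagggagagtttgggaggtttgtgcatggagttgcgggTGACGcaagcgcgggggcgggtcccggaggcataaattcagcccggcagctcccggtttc
Jun (chr4:95052223-95052332, - strand): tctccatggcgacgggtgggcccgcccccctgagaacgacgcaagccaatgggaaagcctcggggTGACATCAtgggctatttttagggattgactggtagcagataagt
Junb (chr8:84978749-84978858, - strand): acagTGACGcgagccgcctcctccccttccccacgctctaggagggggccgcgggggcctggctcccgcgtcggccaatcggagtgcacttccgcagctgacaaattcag

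Fos had TGACG at bases -66 to -62 and at -129 to -125 from its start, the latter outside the stretch shown. Fosb had it at -60 to -56 and Junb at -106 to -102. Jun had TGACATCA at -45 to -38. None of the letters searched occurred in the windows of Fosl2 and Jund. Of 32851 mouse promoters of the same length, 17.8% held TGACG, 2.93% TGACATCA, 4.46% TGACTCA, 1.55% TGACGTCA and 1.47% a CArG box. A match is a string of letters, and binding was not measured. The RefSeq start lay 671 bases from the GENCODE start in Fosl2, 1210 bases in Jund and at most 30 bases in the 4 genes shown.

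**Figure D1:**
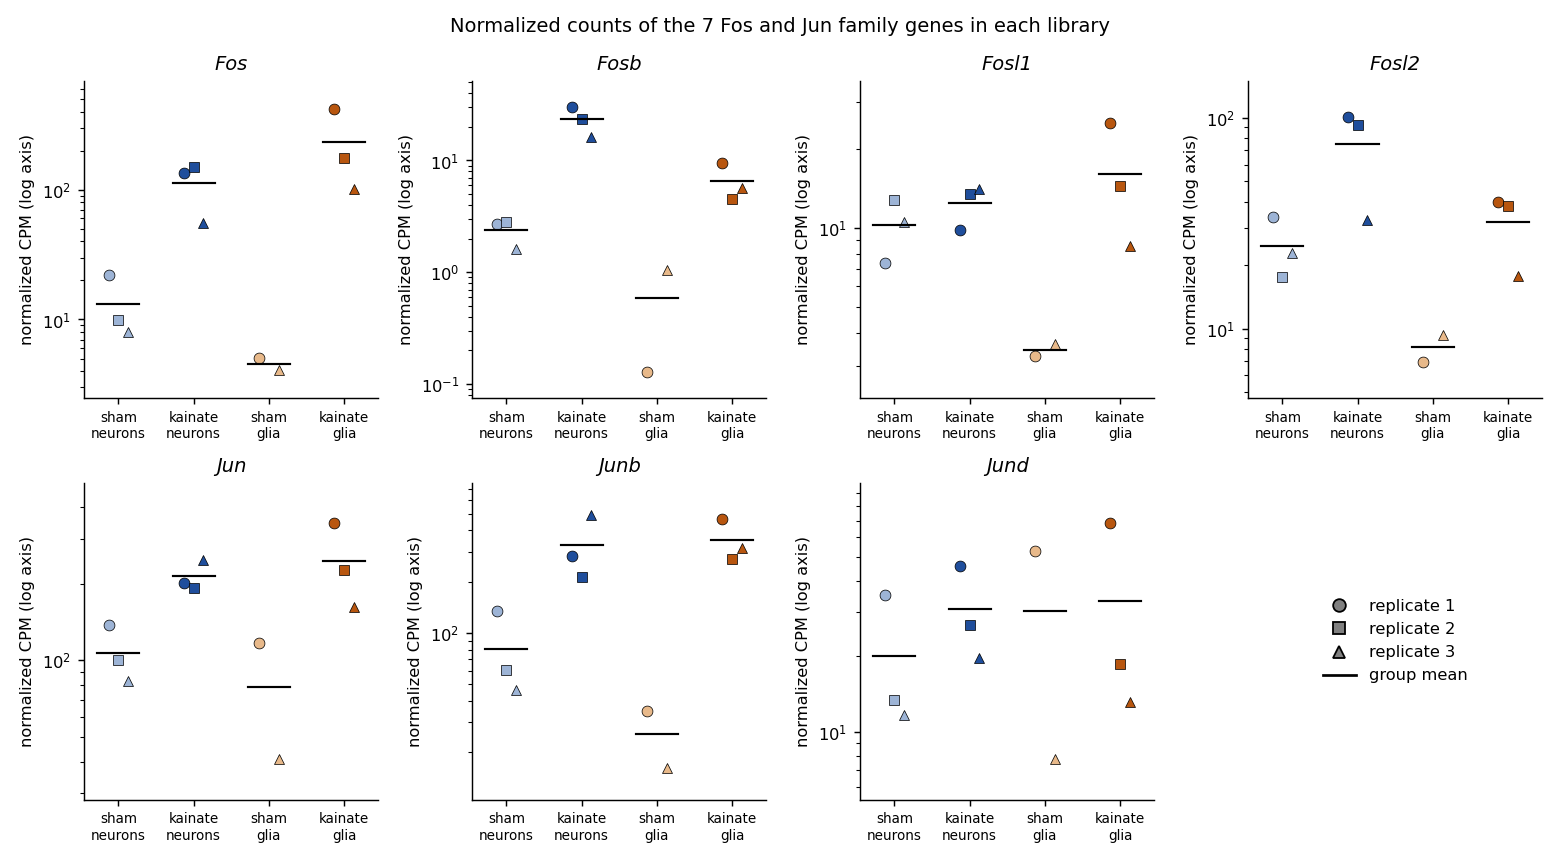
Normalized CPM (log axis) of each of the 7 genes in each library, by group, with marker shape for the replicate number and a line at the group mean. Fos lay between 55.8 and 148 CPM in kainate neurons and between 8.0 and 21.9 CPM in sham neurons, and Jund was highest in replicate 1 of every group.

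Kainate against sham in neurons asked which members differed 24 h after the seizures. Fos and Fosb were higher after kainate, by 8.53-fold and 9.85-fold. Junb, Fosl2 and Jun had fitted folds of 4.08, 3.05 and 2.00 and were not called on group means but were with the replicate block, as was Jund at 1.54. Fosl1 was called in neither of these fits. A gene was called at a false discovery rate (FDR) below 0.25, the threshold of the study, from edgeR's quasi-likelihood test over all 40714 genes. By this rule 2 of 7 members were called, both higher, where 0.157% of all genes tested were called higher. With the block 6 of 7 were called higher, against 3.19% of all genes. The study used its threshold in separate fits of neurons and glia and on fewer genes. Besides the members called here on group means, it called Fosl2 in neurons and Fosb, Fosl1 and Fosl2 in glia.

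Fos, the Fos family's founding member (chr12:85473890-85477273, + strand, mm10), had 133.7, 148 and 55.8 CPM in kainate neurons. The sham neurons had 21.9, 9.91 and 7.96 CPM, so that the groups did not overlap. Fos had a log2 fold change of 3.09 (SE 0.59, FDR = 0.150), and 3.11 (SE 0.24, FDR = 2.28e-14) with the block. Fosb (chr7:19302696-19310051, - strand) encodes FosB and, by splicing, the shorter and long-lived ΔFosB, which counts per gene cannot tell apart. It had 30.1, 23.6 and 16.3 CPM after kainate and 2.69, 2.81 and 1.61 CPM after sham. Again the groups did not overlap. Its log2 fold change was 3.30 (SE 0.57, FDR = 0.108). The promoter stretch of each of these genes shown above held 1 TGACG.

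Fosl2, which encodes Fra-2 (chr5:32135801-32157842, + strand), had 100.6, 92.0 and 32.9 CPM after kainate and 33.8, 17.5 and 22.8 CPM after sham. The lowest kainate library lay just under the highest sham library, so that the groups overlapped. The log2 fold change was 1.61 (SE 0.46, FDR = 0.732), and 1.504 (SE 0.25, FDR = 2.94e-05) with the block. Fosl1, which encodes Fra-1 (chr19:5447547-5455946, + strand), had 9.82, 13.5 and 14.01 CPM after kainate and 7.39, 12.8 and 10.5 CPM after sham. These groups overlapped as well, and the log2 fold change was 0.28 (95% CI -0.60 to 1.17). Of its exon bases, 57.2% are shared with Ccdc85b on the opposite strand, and the library kit does not mark strand, so reads of the pair could not be told apart.

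Among the Jun genes, Junb (chr8:84974484-84978718, - strand), which binds DNA as AP-1 but activates many targets less than c-Jun does, had 283.6, 212 and 493 CPM in kainate neurons. In sham neurons it had 135.1, 60.8 and 46.5 CPM, with no overlap. The log2 fold change was 2.03 (SE 0.50, FDR = 0.390), and 2.08 (SE 0.24, FDR = 7.05e-09) with the block. Jun (chr4:95049034-95052222, - strand), which encodes c-Jun, the target of the JNK kinases, had 201.7, 193 and 248 CPM after kainate and 137.6, 100.3 and 83.1 CPM after sham. Here too the groups did not overlap, with a log2 fold change of 1.00 (SE 0.43, FDR = 1.0) and 1.02 (SE 0.19, FDR = 0.000189) with the block. Fos, Fosb, Jun and Junb were thus the 4 members whose kainate libraries all lay above the sham libraries, a pattern found in 4.26% of all genes.

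Jund (chr8:70698949-70700616, + strand), which encodes JunD, had 46.2, 26.6 and 19.6 CPM in kainate neurons and 35.2, 13.4 and 11.6 CPM in sham neurons. Replicate 1 was the highest library in each group, and the groups overlapped. Its log2 fold change was 0.62 (SE 0.72, FDR = 1.0), and 0.71 (SE 0.21, FDR = 0.0490) with the block. The antisense gene Gm11175 shares 52.6% of Jund exon bases, so these reads could not be told apart either.

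The calls in neurons depended on single libraries. Without kainate neuron replicate 1 or 2, or sham neuron replicate 2 or 3, no member was called. In those 4 fits the log2 fold change of Fos was 2.83 to 2.95 and that of Fosb 3.08 to 3.45, close to the values over all libraries. Without kainate glia replicate 2, whose spread enters the common fit, Fos had an FDR of 0.290, and with low input as a covariate 0.256. Without sham glia replicate 1 or 3, Junb was called too (FDR = 0.167 and 0.165). Without the 4 libraries of replicate 1, a choice made after the data were seen, Fos, Fosb, Fosl2, Jun and Junb were called higher, where 1.41% of all genes were.

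Summed astrocyte and microglia markers were higher in all kainate than in all sham neurons, whereas the sums of the other lists overlapped. The 6 astrocyte markers summed to 170 to 234 CPM in sham and 252 to 410 CPM in kainate neurons. None of the 6 was called on group means, and 4 were called higher and 2 lower with the block, where 5.09% of all genes were called. In the fit without replicate 1, 2 astrocyte markers and 1 microglia marker were called higher in neurons, beside the 1.41% of all genes. Gfap, the filament protein of reactive astrocytes, averaged 79.2 CPM in kainate and 21.2 CPM in sham neurons (FDR = 0.617). The 5 microglia markers summed to 25.1 to 29.0 CPM in sham and 31.9 to 49.1 CPM in kainate neurons. For oligodendrocytes the 5 markers summed to 230 to 439 CPM in sham and 185 to 421 CPM in kainate neurons, and for their precursors the 2 markers summed to 8.33 to 29.7 and 8.11 to 35.9 CPM. The part of these cells in the neuronal values was not tested. In bulk nuclei, more expressing cells and more RNA per cell cannot be told apart.

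**Figure D2:**
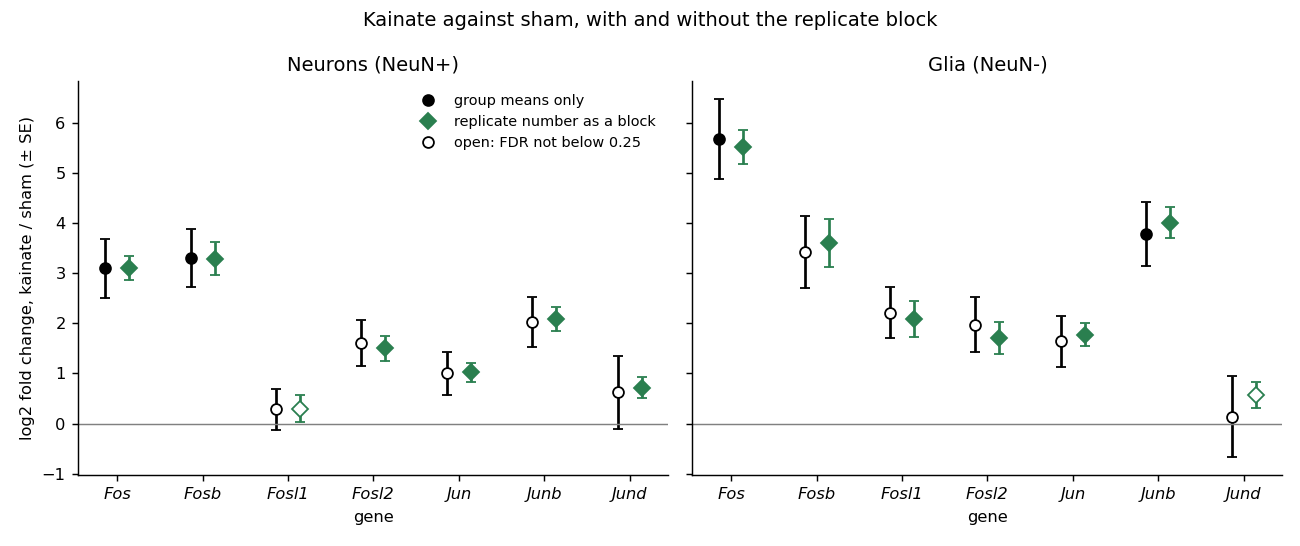
Log2 fold change of kainate over sham (points) with its SE (bars) for each gene in neurons (left) and glia (right), from the fit on group means (circles) and with the replicate number as a block (diamonds). Filled symbols have an FDR below 0.25. On group means only Fos and Fosb in neurons and Fos and Junb in glia are filled, and the bars are shorter with the block.

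In glia, Fos and Junb were called, at 51.0-fold and 13.8-fold above sham. Fosb, Fosl1, Fosl2 and Jun had fitted folds of 10.7, 4.64, 3.92 and 3.11, and were not called on group means but were with the block. Jund was called in neither of these fits. Of the 7 members 2 were called higher on group means, where 0.0933% of all genes were, and 6 with the block, where 2.93% were. In 6 of 7 members all kainate glia lay above both sham glia, a pattern of 4.7% of all genes.

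Fos had 419, 176 and 101.6 CPM in kainate glia and 5.05 and 4.07 CPM in sham glia. The lowest kainate library was thus far above both sham libraries, while the kainate libraries themselves spread widely. The log2 fold change was 5.67 (SE 0.80, FDR = 0.0763), and 5.51 (SE 0.33, FDR = 4.79e-18) with the block. Junb had 464, 273 and 314 CPM after kainate and 34.7 and 16.3 CPM after sham. The groups did not overlap, and the log2 fold change was 3.78 (SE 0.64, FDR = 0.105).

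Fosb had 9.41, 4.48 and 5.65 CPM in kainate glia and 0.128 and 1.04 CPM in sham glia. The lower sham value rests on 2 reads in the low-input replicate 1 and the other on 21 reads. The log2 fold change was 3.42 (SE 0.71, FDR = 0.267), just above the threshold, and 3.60 (SE 0.47, FDR = 2.77e-07) with the block. Fosl1 had 25.1, 14.4 and 8.54 CPM after kainate and 3.26 and 3.62 CPM after sham, a log2 fold change of 2.21 (SE 0.51, FDR = 0.438). Fosl2 had 39.9, 38.1 and 17.8 CPM against 6.97 and 9.32 CPM, a log2 fold change of 1.97 (SE 0.55, FDR = 1.0). Both were called with the block (FDR = 7.96e-05 and 0.000281).

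Jun had 345, 227 and 161.9 CPM in kainate glia and 116.6 and 41.0 CPM in sham glia. The groups did not overlap, and the log2 fold change was 1.64 (SE 0.51, FDR = 1.0), and 1.77 (SE 0.24, FDR = 3.63e-07) with the block. Jund had 68.4, 18.6 and 13.2 CPM after kainate and 52.8 and 7.74 CPM after sham. In both groups the high value was replicate 1. Its log2 fold change of 0.14 (SE 0.81) was -1.09 without kainate glia replicate 1, and its direction was not settled.

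The calls in glia depended on single libraries of both treatments. Without the low-input sham glia replicate 1, Fos and Junb both had an FDR of 0.326, with log2 fold changes of 5.87 and 4.45. With both low-input libraries left out the FDR was 0.615 for both. Junb was also lost without kainate glia replicate 1 (FDR = 0.276) or 2 (FDR = 0.260). In the fit of the 2 glia groups alone no gene was called at all, and Fos had an FDR of 0.707. With sham glia replicate 3 left out, 5 members were called, Fos, Fosb, Fosl1, Fosl2 and Junb, in a fit that called 2359 of 42640 genes higher and moved the median of all genes to 0.76 on the log2 scale. Without the 4 libraries of replicate 1 it was 6 members, where 0.954% of all genes were called higher, and Fos and Junb had log2 fold changes of 5.11 and 4.19. Leaving out 1 sham glia library leaves 1, which the fit takes to vary like the other groups.

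Sums of all 7 marker lists overlapped between the glia groups. The neuron markers summed to 465 to 647 CPM in sham and 513 to 745 CPM in kainate glia, the astrocyte markers to 1047 to 3999 and 625 to 3126 CPM, and the microglia markers to 503 to 2629 and 463 to 1379 CPM. No marker of the 7 lists was called in glia on group means. With the block 12 of the 31 were called, where 5.79% of all genes were. Leaving out replicate 1, 1 astrocyte marker was called higher and 1 lower in glia. P2ry12, a receptor of resting microglia, had 44.3 ± 28.5 CPM (SD, n = 3) in kainate and 252 ± 262 CPM (n = 2) in sham glia. Its groups overlapped, and its FDR on group means was 0.788. Within both pairs the sums of astrocyte, microglia, oligodendrocyte, precursor and pericyte markers were lower after kainate, and those of neuron and endothelial markers were lower in 1 pair each. The oligodendrocyte sum, for one, was 25862 against 36814 CPM in pair 1 and 4631 against 8319 CPM in pair 3, and the precursor sum 655 against 1116 and 137 against 342 CPM. The part of such shifts in the changes of the family was not tested.

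**Figure D3:**
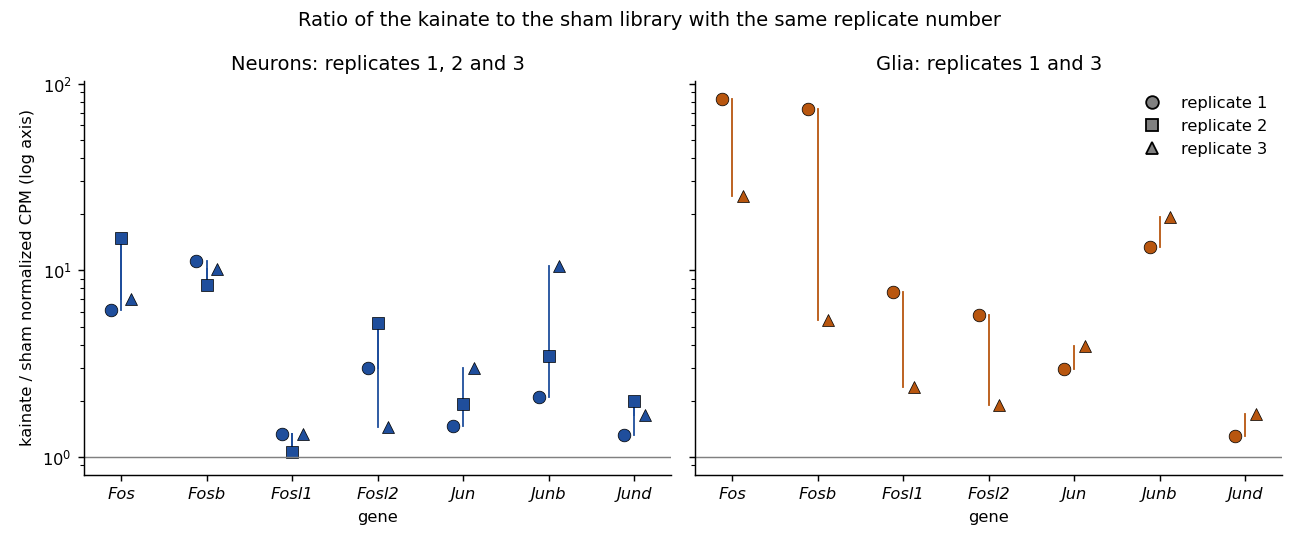
Ratio of the kainate to the sham library with the same replicate number (log axis) for each gene, in neurons (left) and glia (right); lines join the pairs of a gene. All 35 ratios lie above 1, and Fosb in neurons spans only 8.40 to 11.2.

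The same-number ratios showed how evenly each member changed. In all 35 ratios (7 genes, 3 pairs in neurons and 2 in glia) the kainate library was higher. In neurons Fosb was the most even of the strongly changed members, with 11.2-, 8.40- and 10.1-fold. Fos had 6.11-, 15.0- and 7.003-fold. Junb ranged more widely, from 2.10-fold in pair 1 through 3.49-fold in pair 2 to 10.6-fold in pair 3. Fosl2 had 2.98-, 5.25- and 1.44-fold, lowest in the pair where Junb was highest.

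In glia, Fos was 83.1-fold higher in pair 1 and 24.98-fold in pair 3. Junb was 13.4- and 19.3-fold higher. Fosb was 73.6-fold higher in pair 1, with an exact 95% counting interval of 20.02 to 613 from the 2 sham reads, and 5.42-fold (3.45 to 8.96) in pair 3. The intervals cover counting error only, since reads carried no molecular identifiers. Jund stayed between 1.29- and 1.98-fold over all 5 pairs. These ratios are not independent of the fits above.

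Whether kainate changed a member differently in neurons and glia was tested as an interaction. On group means no member was called, by edgeR or by DESeq2, where 0.00246% of all genes were called by edgeR and 0.0761% by DESeq2. At an unadjusted p below 0.05 there were 3, Fos, Fosl1 and Junb. With the block these 3 were called, all with a smaller change in neurons, against 0.702% of all genes called in that direction. The difference on the log2 scale, neurons minus glia, was -2.58 for Fos (SE 0.85, FDR = 1.0), and -2.41 with the block (SE 0.37, FDR = 5.23e-05). For Junb it was -1.75 (SE 0.74, FDR = 1.0), and -1.93 with the block (SE 0.37, FDR = 0.00134). For Fosl1 it was -1.93 (SE 0.64, FDR = 1.0), and -1.78 with the block (SE 0.45, FDR = 0.0316), with the overlap with Ccdc85b named above. Without the libraries of replicate 1, and without the block, none of these 3 was called, at -1.67, -1.55 and -1.51 for Fos, Junb and Fosl1.

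For the other 4 members the difference had wide intervals. It was -0.12 for Fosb (95% CI -1.81 to 1.58), -0.36 for Fosl2 (-1.83 to 1.11), -0.64 for Jun (-2.02 to 0.75) and 0.48 for Jund (-1.83 to 2.79). The interval of Fosb holds differences of several fold in either direction. It also turned positive in 7 of 20 alternatives.

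In sham mice, neurons had more of most members than glia. Fosb, Junb, Fosl2, Fosl1 and Fos were higher in neurons, with log2 fold changes of 1.96, 1.66, 1.60, 1.57 and 1.53 and FDRs of 0.106, 0.104, 0.0960, 0.0682 and 0.220. This was 5 of 7 members, where 9.11% of all genes were called higher. In the same 5 genes all sham neurons lay above both sham glia, as in 14.4% of all genes. Fos had 7.96 to 21.9 CPM in sham neurons and 4.07 to 5.05 CPM in sham glia. Jun, at 83.1 to 137.6 against 41.0 to 116.6 CPM, overlapped (log2 0.44, SE 0.48), as did Jund (log2 -0.60, SE 0.80). Without sham neuron replicate 1, 3 of the 5 calls were lost, those of Fos (FDR = 0.610), Fosl2 (0.265) and Junb (0.394). Without sham glia replicate 3, Fos and Junb were lost (FDR = 0.348 and 0.306), and without sham glia replicate 1, Fosb (FDR = 0.263) was lost and Jun (0.151) gained. The call of Fos was also lost without kainate neuron replicate 1 or 2, kainate glia replicate 2 or sham neuron replicate 2 (FDR = 0.256 to 0.279). Without the libraries of replicate 1 all 7 members were called higher in neurons, where 20.9% of all genes were, and Jund turned to log2 0.86 (FDR = 0.160).

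After kainate, Fosb and Fosl2 were the members higher in neurons, by log2 1.84 (SE 0.54, FDR = 0.0443) and 1.23 (SE 0.46, FDR = 0.126). That was 2 of 7, where 11.3% of all genes were called higher. All kainate neurons lay above all kainate glia in Fosb (16.3 to 30.1 against 4.48 to 9.41 CPM), as in 14.8% of all genes. Fosl2 overlapped, and was not called without kainate neuron replicate 1 (FDR = 0.401) or 2 (0.367) or kainate glia replicate 3 (0.426). Fos had a log2 difference of -1.04 (SE 0.55, FDR = 0.311), not called, but was called lower in neurons in 6 of 21 alternatives. With the pool as a block it was -0.92 (SE 0.30, FDR = 0.0480), where 27.9% of all genes were called lower. By the DESeq2 Wald test its FDR was 0.196, where 5609 of 40714 genes were called lower. Without kainate glia replicate 3 the log2 difference of Fos was -1.55 (FDR = 0.0738). Within each pool Fos was lower in neurons, at 0.319, 0.841 and 0.549 times the level in glia. In sham mice it was 4.34 and 1.96 times the level in glia. Without the libraries of replicate 1 the log2 difference of Fos after kainate was -0.37 (FDR = 0.462), and Fosb, Fosl2 and Jund (log2 0.62, FDR = 0.180) were called higher in neurons, where 19.1% of all genes were. For Junb, Jun, Jund and Fosl1 the log2 differences were -0.09, -0.19, -0.11 and -0.36, each within its SE. The median of all genes in these neuron against glia comparisons was -0.37 in sham and -0.47 after kainate.

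**Figure D4:**
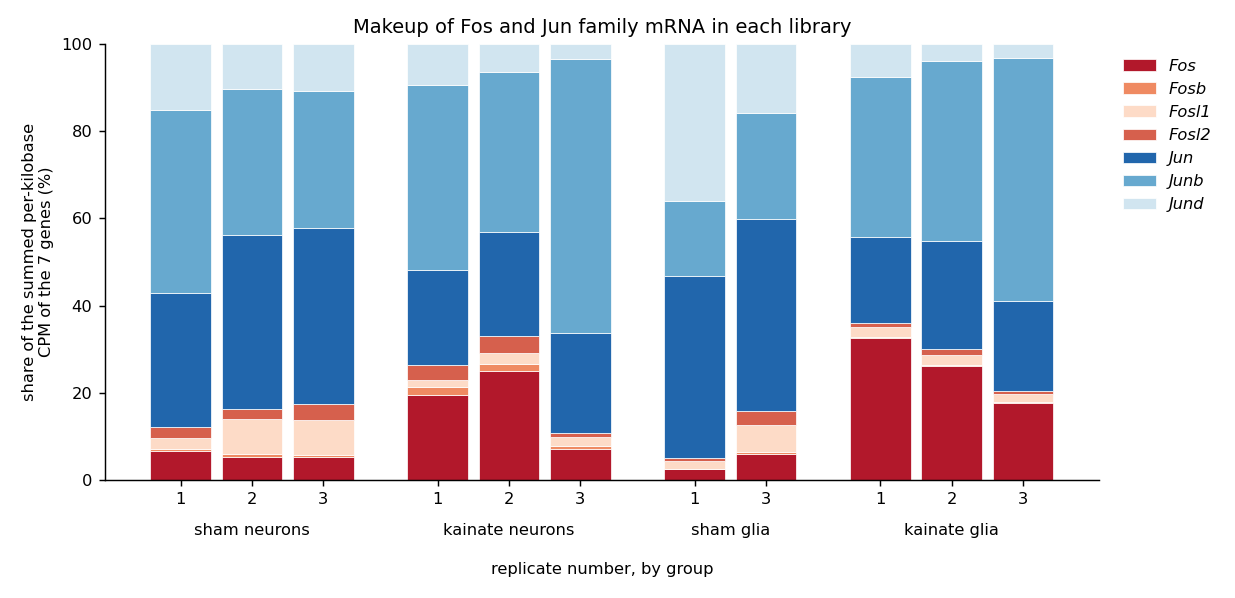
Share (%) of each gene in the summed per-kilobase CPM of the 7 genes, 1 stacked bar per library, with replicate numbers below. Fos (dark red) takes 17.6% to 32.6% in kainate glia and 2.44% to 5.92% in sham glia, and Jun (dark blue) has a smaller share in every kainate library than in every sham library.

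To compare members with each other, CPM were divided by the length of each gene's exons in kilobases. The full length was used for Fosl1 and Jund too, of which 57.2% and 52.6% is shared with a gene on the opposite strand. Their levels, ranks and shares per length are therefore less comparable with those of the other members. The summed level of the family was 251.7 to 340 CPM per kb in kainate neurons and 64.4 to 139.8 in sham neurons. It was 245 to 547 in kainate glia and 29.2 to 87.8 in sham glia. In both cell types the kainate libraries lay above the sham libraries. These sums and the shares below are descriptions and were not tested.

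In sham neurons Junb (35.1 ± 20.7 CPM per kb, SD, n = 3) and Jun (33.6 ± 8.75) led and overlapped. Then came Jund (12.04 ± 7.86), Fos (5.63 ± 3.21), Fosl1 (5.03 ± 1.33), Fosl2 (2.55 ± 0.86) and Fosb (0.380 ± 0.106). The neighbours Jund and Fos overlapped, as did Fos and Fosl1, whereas Jun and Jund, Fosl1 and Fosl2, and Fosl2 and Fosb did not. In kainate neurons the order was Junb (143 ± 63.3), Jun (67.1 ± 9.27), Fos (47.9 ± 21.2), Jund (18.5 ± 8.27), Fosl2 (7.76 ± 3.81), Fosl1 (6.12 ± 1.13) and Fosb (3.74 ± 1.11). Here Junb and Jun no longer overlapped, while Jun and Fos, Fos and Jund, and Fosl2 and Fosl1 did. Fosl1 and Fosb lay next to each other without overlap (lowest Fosl1 4.829, highest Fosb 4.820).

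In sham glia Jun (24.7 ± 16.8, n = 2), Jund (18.2 ± 19.1) and Junb (11.1 ± 5.67) overlapped at the top. Fos (1.94 ± 0.295), Fosl1 (1.69 ± 0.125), Fosl2 (0.841 ± 0.172) and Fosb (0.0936 ± 0.103) followed, of which only Fos and Fosl1 overlapped. In kainate glia Junb (152 ± 43.7, n = 3), Fos (98.8 ± 70.6) and Jun (76.7 ± 29.1) led, and Fos overlapped both of the others. Jund (20.02 ± 18.3), Fosl1 (7.87 ± 4.13), Fosl2 (3.30 ± 1.27) and Fosb (1.04 ± 0.412) were lower. Jund overlapped Fosl1, while Fosl1 did not overlap Fosl2, nor Fosl2 Fosb. Fosb was thus the lowest member per length in each of the 4 groups.

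The makeup of both families shifted with treatment. Fos made up 30.3% to 55.2% of the Fos family's level in sham neurons and 64.8% to 76.0% in kainate neurons. In glia the share was 37.3% to 47.8% in sham and 86.2% to 90.8% in kainate libraries. Fosl1 took 21.5% to 49.3% of the Fos family in sham neurons and 6.28% to 18.8% in kainate neurons, with little change in its own level. Junb was 0.776 to 1.36 times the level of Jun in sham neurons and 1.53 to 2.76 times in kainate neurons. In glia this ratio was 0.413 and 0.550 in sham and 1.66 to 2.69 in kainate libraries. Neither ratio overlapped between treatments. Fosb was 0.0600 to 0.110 times the level of Fos in kainate neurons and 0.00845 to 0.0209 times in kainate glia.

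Of 18 dimer partners and related bZIP factors, 1 was called higher in neurons and 2 in glia, and none lower, where 0.157% and 0.0933% of all genes were called higher. This list too was chosen with earlier results of these data known, so its counts are descriptions. Atf3, a stress-induced ATF factor that pairs with Jun proteins, averaged 13.6 ± 4.79 CPM (SD, n = 3) in kainate and 1.26 ± 0.357 in sham neurons. This was a log2 fold change of 3.41 (SE 0.52, FDR = 0.0566). In glia it averaged 42.8 ± 29.7 CPM (n = 3) after kainate and 2.62 ± 0.0859 (n = 2) after sham, a log2 fold change of 4.03 (SE 0.63, FDR = 0.0763). Mafk, a small Maf protein without an activation domain, was higher in kainate glia at 64.7 ± 42.4 against 8.36 ± 5.08 CPM (log2 2.96, SE 0.60, FDR = 0.228). With the block, 3 of the 18 were called higher and 1 lower in neurons, and 4 and 1 in glia, where 3.19% and 2.93% of all genes were called higher and 1.9% and 2.86% lower. With libraries left out, Atf3 was not called in neurons without sham neuron replicate 2 or 3, and neither gene was called in glia without sham glia replicate 1 or without both low-input libraries. Mafk was called in 2 of the 11 fits without 1 library, those without kainate or sham glia replicate 3. In the fit of the 2 glia groups alone neither was called, and Mafk was not called with DESeq2 size factors or with low input as a covariate. Leaving out replicate 1 in all groups gave 2 and 1 in neurons, where 1.41% and 0.863% of all genes were called higher and lower, and 4 and 0 in glia, where 0.954% and 0.129% were. The median log2 fold change of the list was 0.23 in neurons and 0.19 in glia, where that of all genes was -0.02 and 0.02.

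The kinases that lead to AP-1, among them the JNK, p38 and RSK genes and their activators, were not called in either cell type (0 of 15 by edgeR on group means). At an unadjusted p below 0.05 there was 1 in neurons, Rps6ka5, which encodes MSK1, with a log2 fold change of -1.003 (FDR = 1.0), and 0 in glia. With the block 2 were higher and 2 lower in neurons, and 1 was higher in glia. That fit called 3.19% of all genes higher and 1.9% lower in neurons, and 2.93% and 2.86% in glia. The 11 factors that act on the Fos and Jun promoters, such as Srf, Elk1 and Creb1, gave 0 calls in both cell types and 0 at an unadjusted p below 0.05. With the block, beside the same shares of all genes, 1 was lower in neurons, and 1 was higher and 1 lower in glia. The 4 ubiquitin ligase genes of c-Jun, Fbxw7, Itch, Cop1 and Det1, gave 0 calls on either count, and 1 was higher in neurons with the block. Without the libraries of replicate 1 the calls in these 3 lists were 2 kinases lower in neurons, where 0.863% of all genes were called lower, and none in glia. Their mRNA says nothing of the activity of the proteins, which is set largely by phosphorylation.

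Of 21 textbook AP-1 target genes, 2 were called higher in neurons, 3 in glia and none lower, where 0.157% and 0.0933% of all genes were called higher. The list was chosen with earlier results of these data known, so its counts are descriptions and no test of AP-1 activity. Timp1, an inhibitor of metalloproteinases, averaged 6.02 ± 1.75 CPM (SD, n = 3) in kainate and 0.607 ± 0.366 in sham neurons (log2 3.31, SE 0.66, FDR = 0.169). In glia it averaged 17.6 ± 11.7 CPM (n = 3) after kainate and 0.355 ± 0.221 (n = 2) after sham (log2 5.64, SE 0.89, FDR = 0.0763). Vim, which encodes vimentin and is itself a gene of reactive astrocytes, was higher in kainate neurons at 12.4 ± 4.57 against 1.64 ± 0.853 CPM (log2 2.89, SE 0.57, FDR = 0.169), beside the astrocyte markers given above.

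In glia the other 2 target genes called were Cd44 and Ccl2. Cd44, a receptor for hyaluronan, had 124 ± 57.0 CPM after kainate and 9.44 ± 3.69 after sham (log2 3.72, SE 0.58, FDR = 0.0763). Ccl2, a chemokine that draws monocytes, had 23.0 ± 8.10 and 2.70 ± 1.02 CPM (log2 3.08, SE 0.55, FDR = 0.142). In neurons Ccl2 was 1.84 ± 0.501 CPM after kainate and 1.83 ± 0.677 after sham. With the block, 8 of the 21 targets were called higher in neurons and 10 in glia, and none lower, where 3.19% and 2.93% of all genes were called higher. Leaving out the libraries of replicate 1 gave 7 and 10, where 1.41% and 0.954% of all genes were. With low input as a covariate no target was called in neurons. The DESeq2 Wald test and the fit of the 2 groups alone each gave 7 there, where 0.717% and 1.07% of all genes were called higher. In glia these settings gave 3, 5 and 0, where 0.054% and 0.469% of all genes were called higher by the covariate fit and DESeq2, and 0 genes in the 2 groups alone. With 1 library left out the counts were 0 to 5 in neurons and 0 to 4 in glia. The neuronal count was 0 without any single kainate neuron library, sham neuron replicate 2 or 3 or kainate glia replicate 2, and the glial count was 0 without kainate glia replicate 2, without sham glia replicate 1 or without both low-input libraries. Without sham neuron replicate 1 the only target called in neurons was Penk. The median log2 fold change was 0.37 in neurons and 0.44 in glia, against -0.02 and 0.02 for all genes. Atf3 and these target genes also respond to factors other than AP-1.

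Between neurons and glia in sham mice, 5 of the 15 kinases were called higher in neurons and 2 lower. The 5 included Mapk10, which encodes the neuronal JNK3 (log2 2.40, FDR = 0.00208). Of the 11 promoter factors 5 were higher in neurons, among them Srf (log2 0.96, FDR = 0.205) and Elk1 (log2 1.13, FDR = 0.161), and none lower. Of the 18 bZIP genes 1 was higher in neurons and 5 lower, including Nfe2l2, which encodes NRF2 (log2 -3.32, FDR = 0.00734). Of the 4 ligases Fbxw7 was higher in neurons (log2 2.30, FDR = 0.00605) and Itch lower (log2 -1.12, FDR = 0.219). The AP-1 targets gave 3 higher and 5 lower of 21 in sham and 3 and 11 after kainate. These counts stand beside 9.11% of all genes called higher and 7.63% called lower in sham, and 11.3% and 9.39% after kainate. Without the libraries of replicate 1 the counts higher and lower in sham were 12 and 2 kinases, 6 and 0 promoter factors, 5 and 6 bZIP genes, 2 and 0 ligases and 4 and 9 targets, where 20.9% of all genes were called higher and 21.9% lower. After kainate the targets then gave 4 and 14, where 19.1% and 28.4% of all genes were called. The lists were not tested against each other.

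The genes whose level followed that of a member most closely were sought among 18572 genes with a mean log2 CPM above 1, by Pearson's r of log2 CPM over the 11 libraries. For Fos these were Pvr (r = 0.960), Egr1 (0.956) and Egr2 (0.953), of which Egr1 and Egr2 are immediate early zinc finger genes. For Fosb they were Sv2c (0.9499), Rasl11a (0.947) and Gm17056 (0.943). For Junb they were Gadd45g (0.965), Kdm6b (0.961) and Pvr (0.943). For Jun they were Coro1c (0.965), Lrtm2 (0.953) and Zdhhc18 (0.947). Pvr thus stood on the lists of both Fos and Junb. The libraries share pools and treatments, so that these r are descriptions.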

How the data were processed

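The mRNAseq counts were deposited as raw counts of reads per gene, made by the authors with Trim Galore 0.4.3, alignment by Rsubread to mm10 and featureCounts of uniquely mapping reads on GENCODE release M16. The bisulfite samples were not analysed here. The sequencing platform of each library is not given in the sources used here.

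Genes without a symbol (105) were left out. edgeR 4.0.16 in R 4.3.3 with limma 3.58.1 kept genes by filterByExpr (minimum count 10, minimum total 15), scaled counts by TMM and fitted 1 mean per group over all 11 libraries with glmQLFit (legacy=TRUE). That fit left 7 residual degrees of freedom, to which the prior added 6.76 (biological coefficient of variation 0.600). P-values were adjusted over 40714 genes (Benjamini-Hochberg) and tests were two-sided. The groups hold pools of mice, whose number limits the precision.

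Deviations from the group means had r = 0.643, 0.161 and 0.491 between kainate and sham neurons of the same number. Across numbers r was -0.600 to -0.215 in pairs with replicate 1, and 0.166 and 0.418 between replicates 2 and 3. In glia r was 0.760 and 0.787 at the same number, where 2 sham libraries mirror each other. The NeuN+ and NeuN- libraries of a number came from the same pool (r = 0.240 to 0.668). The replicate block, by number within each cell type or by pool, left 3 residual and 48.0 or 7.74 prior degrees of freedom. The count of members called with it was 6, 6 and 3 for kainate in neurons, in glia and the interaction.

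Alternatives were DESeq2's size factors, the DESeq2 1.42.0 Wald test, no filter, CPM of at least 1 in 3 libraries, genes with and without a symbol, low input as a covariate, no low-input libraries, each library left out, the 2 groups alone and the block. Leaving out the libraries of number 1 was added after the data were seen. Named genes are the members, list genes called in kainate against sham, and for Fos, Fosb, Junb and Jun the 3 genes of highest r. Other genes named (Gfap, P2ry12, Rps6ka5, Mapk10, Srf, Elk1, Nfe2l2, Fbxw7, Itch) were chosen after their values were seen. Members and lists were chosen with earlier results of these data known. Log2 CPM for r used a prior count of 2. Coordinates and exon lengths are from GENCODE M21, promoters from RefSeq.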

Additional observations from a re-analysis of the deposited data

Results flagged for a closer look

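The kainate effect on 3 members differed between neurons and glia in the fit with the replicate block. On the log2 scale the effect in neurons minus that in glia was -2.41 for Fos, -1.93 for Junb and -1.78 for Fosl1. These differences were not called without the block, nor in any of the other 19 alternatives. Groups of 3 or fewer libraries were too small for a search for outlying libraries.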

How the results depend on the processing

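Counts of members called at FDR below 0.25 moved by more than 1.5 times in these cases. For kainate against sham in neurons, 2 were called, and 4 with the DESeq2 Wald test, 1 with low input as a covariate, 5 in the 2 groups alone, 5 without the libraries of number 1, and 0 to 3 with 1 library left out. In glia it was 2, and 6 with the DESeq2 Wald test, 0 without both low-input libraries, 0 in the 2 groups alone, 6 without the libraries of number 1, and 0 to 5 with 1 library left out. For neurons against glia in sham it was 5, and 3 without both low-input libraries, 2 in the 2 groups alone and 2 to 5 with 1 library left out; after kainate it was 2, and 1 to 3 with 1 library left out. The causes were not tested.

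With the replicate block the counts were 6 in neurons, 6 in glia and 3 for the interaction, against 2, 2 and 0 on group means. The block by pool left the count at 5 in sham and gave 3 after kainate, where Jund turned to 0.18 on the log2 scale. The block changed no other call of a member than those given in the report.

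Directions turned in log2 fold changes that were not called on group means. Without both low-input libraries the interaction was 0.44 for Fosb and -1.80 for Jund, and Jund was 1.41 for neurons against glia in sham. Without the libraries of number 1 the interaction was 0.80 for Fosb and -0.24 for Jund, Jund was 0.86 in sham, and after kainate Fosl1 was 0.34, Jun 0.25, Junb 0.34 and Jund 0.62 for neurons against glia. With 1 library left out, Jund in glia ranged from -1.09 to 2.14 and the interaction from -2.30 to 0.64 for Fosb and -1.52 to 1.67 for Jund. Neurons against glia in sham ranged from -0.12 to 1.42 for Jun and -1.40 to 1.41 for Jund, and after kainate from -0.79 to 0.16 for Fosl1, -0.55 to 0.18 for Jun, -0.50 to 0.24 for Junb and -0.65 to 0.97 for Jund. The low counts of Fosb in sham glia, 2 and 21 reads, limit its fold change.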
